A study of Mus musculus with 2 samples.

Results

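The cytosolic ribosomal protein genes encode the proteins of the small and large subunits of the ribosome. They were taken by symbol: Rpl or Rps followed by a number and at most 1 of the letters a, l, x or y, together with Rplp0, Rplp1, Rplp2 and Rpsa, without pseudogenes. The rule found 80 of the 32285 genes in each library, 31 of the small and 49 of the large subunit. It does not take every ribosomal gene: Fau, Rps3a1 and Rack1 fall outside it, as do Rpl22l1, Rpl36al and Rpl7l1, whose symbols differ in form.

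Single-cell RNA sequencing had measured CD45-selected cells of mouse tumours in 2 groups. One was the control group, and the other had received motolimod, a synthetic compound that activates the RNA sensor TLR8. The labels name 5 tumours and 1 library for each group, and the cells cannot be traced to a tumour. Strain, age, tumour model, dose, time and whether the tumours were pooled are not given in the sources used here. With 1 library per group there is no replicate and no test, and every 95% interval below covers counting error only.

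Ribosomal protein messages are among the most abundant of a dividing cell. They typically begin with a C followed by a run of C and T, the 5′ terminal oligopyrimidine (TOP) element, through which mTOR and the RNA-binding protein Larp1 control their translation and stability as a group. Several members have a close paralog with a restricted pattern: Rps27l is known as a p53 target, Rpl3l is known from striated muscle, and Rpl10l and Rpl39l are known from the testis.

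A start site is shown for each of 7 members: 6 with a TOP-like run, picked from members on opposite sides of the motolimod to control comparison, and Rps27l for contrast. Each window runs from 10 bases before to 20 bases from the RefSeq start on build GRCm38.p6, 5′ to 3′ on the gene's strand, with the C and T run that begins at the start in capitals.
Rps27 (chr3:90213629-90213658, minus strand): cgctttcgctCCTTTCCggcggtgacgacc
Rpl38 (chr11:114668570-114668599, plus strand): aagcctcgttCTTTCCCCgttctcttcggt
Rps21 (chr2:180257369-180257398, plus strand): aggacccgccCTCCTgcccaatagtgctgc
Rpl14 (chr9:120571507-120571536, plus strand): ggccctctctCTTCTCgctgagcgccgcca
Rpl15 (chr14:18270967-18270996, minus strand): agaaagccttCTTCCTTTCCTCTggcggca
Rpl28 (chr7:4792955-4792984, plus strand): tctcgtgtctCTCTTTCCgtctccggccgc
Rps27l (chr9:66946076-66946105, plus strand): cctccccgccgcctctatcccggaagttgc
The first 3 members were higher in the motolimod library in macrophages and T cells, and the next 3 were lower in both. As the 6 were picked from both sides, the presence of the run on either side followed from the choice. Rps21 has another RefSeq start, not shown, that begins with a T and has a run of only 1 base. Rps27l starts at a G in this window and has no such run.

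Of the 80 members, 60 had a promoter in the RefSeq table. A start at C with a run of at least 5 C or T was found in 13 of these 60 genes (21.7%), and in 3.01% of all 27025 genes with a promoter there. The 6-base motif CCGGAA, searched on both strands in the 300 bases around the start, was found in 33 of the 60 (55%) and in 16.7% of all genes. CCGGAA is a core of sites for ETS factors, and the letters of its reverse complement TTCCGG can overlap the end of a C and T run. These matches describe the letters of the windows only. They depend on the annotated start: Rpl35a has a run of 8 bases at a RefSeq start and of 1 and 0 bases at others. A missing run at an annotated start thus does not show that a message lacks the element.

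The libraries stood apart in depth before any gene was compared. A unique molecular identifier (UMI) counts 1 captured message. Barcodes were kept from 300 genes and 800 UMIs upwards and up to a mitochondrial share of 10%, which left 7484 in the control and 9314 in the motolimod library. Ptprc, the gene for CD45, was seen in 72.2% and 63.8% of them. Their median depth was 14055 and 3742.5 UMIs. A total of 113 barcode sequences occurred in both libraries. Cell types were gated by fixed markers, and droplets with markers of more than 1 lineage, 12.0% of control and 11.2% of motolimod barcodes, were left out. Levels are given as CPM, a gene's UMIs per 1000000 UMIs of its gate. In 5 of the 7 gates all defining markers reached 50 CPM in both libraries, in the dendritic cell gate 8 of 9 did, and in the gate set up for epithelial cells 3 of 6. In the latter, Krt8 (1288 and 1168 CPM) and Krt18 (918 and 910 CPM) were high in the control and motolimod libraries, while Epcam was at 3.38 and 4.37 CPM and Cldn7 had no UMI. It is called the keratin gate below. Its Ptprc level was 1.93 and 5.91 CPM.

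The ribosomal share, the percentage of a gate's UMIs that came from the 80 members, followed the cell type. In the control library it was 7.09% in neutrophils, 15.95% in monocytes, 18.4% in macrophages, 19.2% in dendritic cells, 24.0% in NK cells, 25.1% in the keratin gate and 25.8% in T cells. In the motolimod library the same gates held 4.18%, 15.5%, 15.6%, 16.7%, 23.3%, 23.5% and 23.4%. Neutrophils, the short-lived granulocytes, were lowest and lymphocytes and keratin cells highest in both libraries. The T cell share was 3.64 times the neutrophil share in the control library (interval 3.62 to 3.66) and 5.59 times in the motolimod library (5.56 to 5.61). NK cells numbered 19 in the control and 60 in the motolimod library, so their values rest on few cells.

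Medians over single cells were also lowest in neutrophils. The top of the order changed: the control medians were 24.2% in T cells, 24.2% in NK cells and 24.97% in the keratin gate. The median neutrophil gave 3.17% of its UMIs to these genes in the control library and 3.01% in the motolimod library, and 78.4% and 74.7% of neutrophils were under 5%. The median motolimod T cell gave 22.5%, and 78.9% of control and 64.7% of motolimod T cells reached 20%. In macrophages the middle range of cells, from the 25th to the 75th percentile, ran from 14.4% to 20.9% in the control library and from 11.4% to 17.5% in the motolimod library. These ranges overlapped, with the motolimod cells lower. After each cell was thinned to 1000 UMIs the medians were 17.9% and 14.2% in macrophages, 3.10% and 2.95% in neutrophils, and 24.2% and 22.7% in T cells. The thinning left out 36 control and 93 motolimod macrophages, 39 and 148 neutrophils, and 2 and 4 T cells that were shallower. The order of these gates was the same with and without it.

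**Figure D1:**
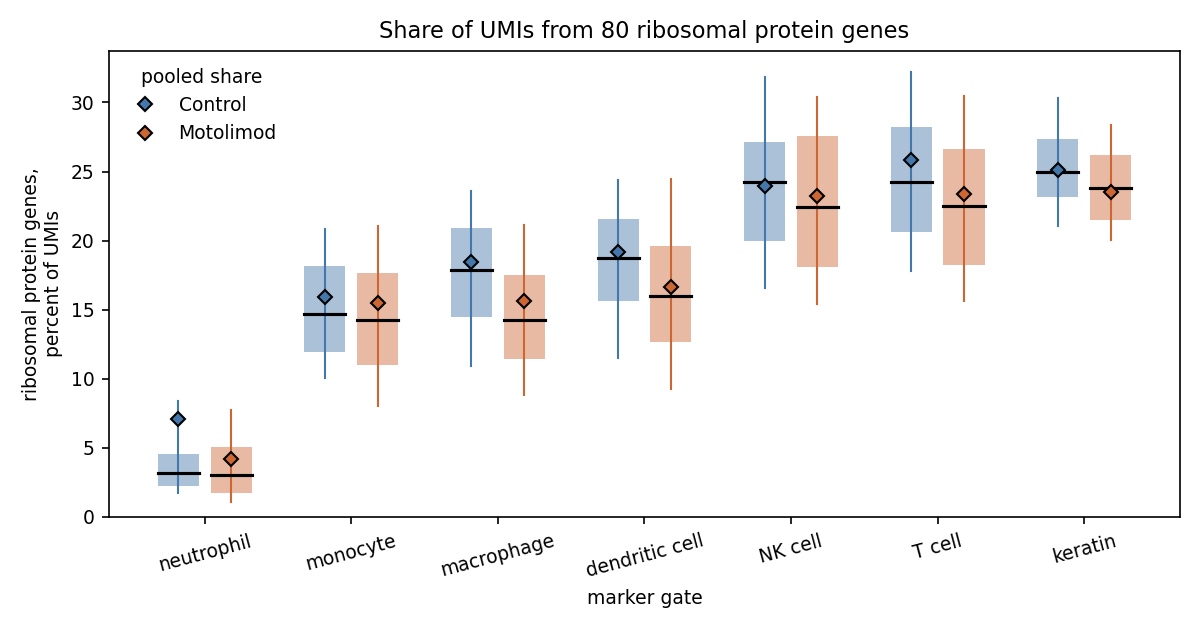
Percentage of UMIs from the 80 ribosomal protein genes in 7 marker gates, control and motolimod libraries side by side. Boxes span the 25th to 75th percentile of cells, thin lines the 10th to 90th, black bars are medians of cells and diamonds are pooled shares; neutrophils lie lowest, with medians of 3.17% and 3.01%, and the control neutrophil diamond at 7.09% stands above its box.

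Both subunits took part about equally. The ratio of large to small subunit UMIs lay between 1.26 and 1.38 in the 7 gates of both libraries. In macrophages it was 1.32 in each library. In neutrophils it was 1.29 in the control and 1.34 in the motolimod library.

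The motolimod to control comparison asked how the share of these genes moved with treatment. The share was lower in the motolimod library in each of the 4 gates with at least 100 cells per library. In macrophages it was 0.847 of the control value (interval 0.846 to 0.848; 4135 control and 4052 motolimod cells). In T cells it was 0.906 (0.903 to 0.909; 356 and 430 cells), and in monocytes 0.969 (0.965 to 0.974; 302 and 286 cells). In neutrophils the pooled share was 0.590 of the control value (0.586 to 0.594; 529 and 2846 cells), but the ratio of the cells' medians was only 0.949.

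The neutrophil value rested on few cells. In the control library, 67 cells with at least 5000 UMIs made up 12.7% of the gate and held 72.0% of its ribosomal UMIs, at a share of 12.3%. The other 462 control cells had a share of 3.38% (interval 3.35 to 3.42). The 2705 motolimod neutrophils under 5000 UMIs had a share of 3.56% (3.54 to 3.57), so that without the deep cells the ratio turned to 1.05. In the deep control cells, the summed neutrophil markers stood at 31869 CPM, against 89624 CPM in the others. The summed monocyte markers stood at 2447 and 475 CPM, and the summed macrophage markers at 732 and 191 CPM. The part of these other lineages in the deep cells' share was not tested.

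Macrophages were lower at every depth. In cells with 800 to 2000 UMIs the share was 16.2% in the control and 14.7% in the motolimod library, and with 2000 to 5000 UMIs it was 15.3% and 13.5%. With 5000 to 10000 UMIs it was 15.7% and 13.7%, with 10000 to 20000 UMIs 18.8% and 16.6%, and with 20000 or more 18.8% and 17.7%. With motolimod macrophages weighted to the depths of the control macrophages, the ratio was 0.918. Other values moved with the library in macrophages: the median depth was 14671 and 6195 UMIs, the mitochondrial share 1.43% and 1.90%, and Malat1, a nuclear RNA, stood at 2370 and 2844 CPM. The summed neutrophil markers stood at 59.5 and 140.0 CPM, with 0 of 7 at 50 CPM in either library, and the summed monocyte markers at 913 and 1465 CPM, with 4 of 5 at 50 CPM. The part of these in the ratio was not tested. In T cells 3 of the 4 shared bins were lower in the motolimod library: 22.2% and 18.3% with 800 to 2000 UMIs (37 and 35 cells), and 25.9% and 24.1% with 5000 to 10000 UMIs. With 2000 to 5000 UMIs both libraries had 22.5%. T cells with 10000 to 20000 UMIs gave 26.7% and 23.1%. Their mitochondrial share was 1.24% and 1.66% and Malat1 stood at 1851 and 3113 CPM, and the part of these was not tested.

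**Figure D2:**
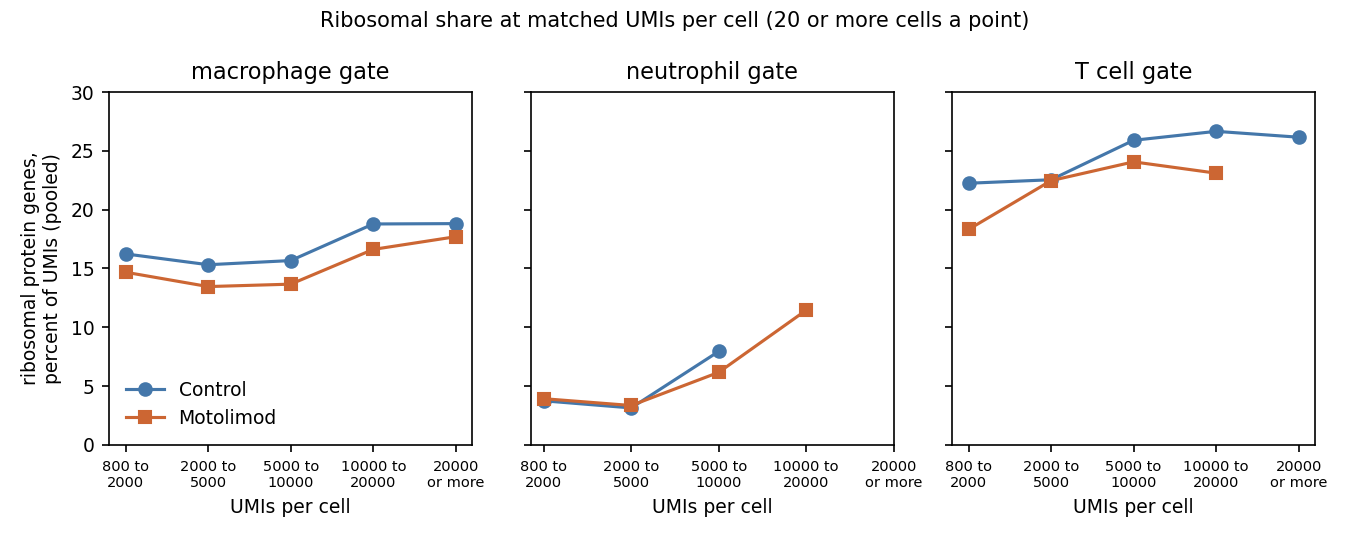
Pooled ribosomal share (percent of UMIs) of macrophages, neutrophils and T cells by UMIs per cell, for bins of at least 20 cells. Control macrophages lie above motolimod macrophages in all 5 bins, while neutrophils under 5000 UMIs nearly coincide (3.15% and 3.35% with 2000 to 5000 UMIs).

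Subsets of macrophages differed in their share and in how far the libraries lay apart. Macrophages with at least 2 of the cycling markers Mki67, Top2a, Ube2c, Birc5 and Ccnb1 had 19.0% in the control (1167 cells) and 18.0% in the motolimod library (425 cells), and the others had 18.0% and 14.8%. The median depth of the cycling cells was 21912 and 17753 UMIs, and that of the others 11736.5 and 5556 UMIs. Cells with the lipid-handling genes Gpnmb and Cd36 had 19.3% in 113 control cells and 13.1% in 343 motolimod cells. Their median depth was 20444 and 6632 UMIs. Cells with the perivascular-type markers Lyve1 and Cd209f were low in both libraries, at 13.7% (135 cells) and 13.2% (34 cells), with median depths of 5804 and 4982.5 UMIs. Cells with Mmp12, Mmp13 and Ccl24, a set of matrix-degrading enzymes and a chemokine, had 19.2% in each library (179 and 36 cells). They were deep in both, with medians of 21417 and 15252 UMIs. The library difference was thus widest in the Gpnmb and Cd36 cells of the subsets named here. Depth differed between subsets and between libraries, and its part in these shares was not tested.

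Among T cells, those with Cd8a or Cd8b1 and no Cd4 had a higher share than the rest in both libraries, 26.9% against 22.4% in the control and 24.6% against 20.8% in the motolimod library. They were also deeper, with median UMIs of 11102.5 against 3046.5 in the control and 6000 against 3991 in the motolimod library. The part of depth was not tested. T cells with Cd4 and neither Cd8 gene had 22.8% and 19.1% (41 and 45 cells). Neutrophils with Ccl3 and Ccl4, which encode inflammatory chemokines, had a median of 2.96% in the control and 2.82% in the motolimod library, and the other neutrophils had 3.32% and 3.86%.

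At the level of single members, 77 of 80 reached 50 CPM in at least 1 library in each of the 4 compared gates. The other 3 were Rpl3l, Rpl10l and Rpl39l. A member was counted as apart if its CPM differed at least 1.5-fold, the same rule as for all other genes of at least 50 CPM. In macrophages 2 members were higher and 9 lower, against 8.53% of all 2967 genes higher and 5.29% lower. The members' median log2 ratio was -0.33, beside -0.01 for all genes tested, and 65 of the 77 were below the control. Their ratios ran from 0.596 to 1.73. Weighted to the control depths, 1 member was higher and 0 lower in macrophages, against 2.95% and 1.68% of the 2920 genes tested in that way.

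In monocytes 1 member, Rps29 (1845 to 3070 CPM, 1.66), was higher and 0 were lower, where the background was 8% higher and 4.21% lower. In T cells the counts were again 1 and 0, against 9.42% and 6.45%, and Rps27 was the member counted. The members' median log2 ratios were -0.09 in monocytes and -0.21 in T cells. In neutrophils 0 members were higher and 55 lower, against 17.5% and 22.4% of all genes, with a median log2 ratio of -0.80. Restricted to cells under 5000 UMIs, the neutrophil counts were 12 higher and 4 lower, against 25.2% and 15.8% of the 2270 genes tested there.

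The 5 members with most UMIs were Rpl41, Rps2, Rpl13, Rps20 and Rps24. Rpl41, the shortest of the family, stood at 6500 CPM over all control cells and 7255 CPM over all motolimod cells. Rps2, on the small subunit, went the other way, from 6505 to 3511 CPM, as did Rpl13, from 5957 to 3411 CPM. Rps20 stood at 4801 and 3641 CPM, and Rps24 at 4485 and 3514 CPM. These sums also carry the different mix of cells in the libraries.

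Within gates, small proteins, most of them of the small subunit, had the highest ratios. This holds for the top ranks only. Of all members above the control, 5 were of the small and 7 of the large subunit in macrophages. In T cells these counts were 4 and 11. In macrophages Rps29, which carries a zinc-binding motif, went from 2313 to 3997 CPM, a ratio of 1.73 (interval 1.72 to 1.74). Rps27 went from 853 to 1369 CPM (1.61, 1.59 to 1.63), Rps21 from 1275 to 1789 CPM (1.40), Rps28 from 2089 to 2891 CPM (1.38) and Rps27l from 497 to 671 CPM (1.35, 1.33 to 1.37). Across the alternative settings run, Rps29 kept a ratio between 1.40 and 2.04 and Rps27 between 1.47 and 1.90 in macrophages. Rps27, Rps29 and Rps21 were also among the 5 highest in T cells. There Rps27 went from 1511 to 2825 CPM (1.87, 1.80 to 1.94; 1.34 in cells under 5000 UMIs), Rpl38 from 1759 to 2592 CPM (1.47), Rps29 from 2248 to 3299 CPM (1.47), Rps21 from 1762 to 2537 CPM (1.44) and Rpl37a from 4060 to 5635 CPM (1.39).

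Long members, most of them of the large subunit, led those that were lower. In macrophages Rplp0, the base of the ribosomal stalk, went from 3962 to 2363 CPM (0.596, interval 0.592 to 0.601). Rpl3, which lies near the peptidyl transferase centre, went from 1875 to 1126 CPM (0.601), Rpl10a from 2287 to 1413 CPM (0.618) and Rpl13 from 5218 to 3337 CPM (0.640). Rpsa, a small-subunit protein also known as the laminin receptor, went from 3599 to 2257 CPM (0.627). Over the alternatives run Rplp0 stayed between 0.512 and 0.738 in macrophages. In T cells Rps2 (0.673), Rplp0 (0.687), Rpl15 (0.721), Rpl28 (0.732) and Rpl13 (0.736) were lowest, all from above 2900 CPM in the control library.

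Neutrophils gave the widest ratios among the members. Rpl3 went from 505 to 125 CPM (0.248, interval 0.225 to 0.273), Rps4x from 936 to 240 CPM (0.256), Rpsa from 1070 to 324 CPM (0.302), Rpl10a from 593 to 180 CPM (0.303) and Rpl7a from 501 to 166 CPM (0.331). Higher were Rps27l (137 to 182 CPM, 1.33), Rps27 (1039 to 1304 CPM, 1.26), Rpl38 (522 to 601 CPM, 1.15), Rps29 (859 to 955 CPM, 1.11) and Rps28 (800 to 877 CPM, 1.10, but 0.936 with mixed droplets kept). The 67 deep control cells hold most of the control counts behind these ratios. In cells under 5000 UMIs, Rpl3 stood at 0.577 of the control, Rps2 at 1.00 and Rpl13 at 1.09. Rps27l stood at 2.92 there (interval 2.23 to 3.91), from 55 control and 975 motolimod UMIs.

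Ordered by coding length, the members formed a gradient in each gate. In macrophages all 10 members under 300 coding bases were above the control, with a median ratio of 1.33. Of 27 members with 300 to 450 bases 2 were above it, with a median of 0.894, and of the 40 longer members 0 were. The medians were 0.760 for 450 to 600 bases and 0.698 for 600 or more. Spearman's rho between coding length and log2 ratio over the 77 members was -0.80 in macrophages, -0.73 in monocytes, -0.65 in neutrophils and -0.64 in T cells. It was -0.58 in NK cells, -0.57 in dendritic cells and -0.63 in the keratin gate. These rho values are descriptions across genes that share 2 libraries, and depth and capture differ between those libraries.

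Other genes followed the order over part of the range. In macrophages their median ratio was 1.09 under 300 coding bases (159 genes, 60.4% above the control), 0.972 for 300 to 450 bases (299 genes, 43.1%) and 0.924 for 450 to 600 bases (327 genes, 35.8%). For the 2071 genes of 600 bases or more it was 1.01, with 52.2% above the control, and rho over all 2856 other genes was 0.21. Transcript length was that of the longest principal transcript annotated for a gene, which need not be the one expressed. Rps20, with 357 coding bases, has 3706 bases by this measure. By transcript length the picture differed, with a rho of -0.45 over the members in macrophages. There, 31 other genes with transcripts under 500 bases had a median of 1.30, and 71.0% of them were above the control. The 10 members with transcripts of that length had a median of 1.33, with 6 above the control. The part of transcript length in the members' values was not tested. Within the bins of UMIs per cell in macrophages, rho over the members ran from -0.40 at 800 to 2000 UMIs to -0.77 at 5000 to 10000 UMIs. In neutrophils with 800 to 2000 UMIs, all 10 short members were above the control (median 1.37) and 10 of 21 long members were. The order of short above long members was thus present within each of these depth bins.

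**Figure D3:**
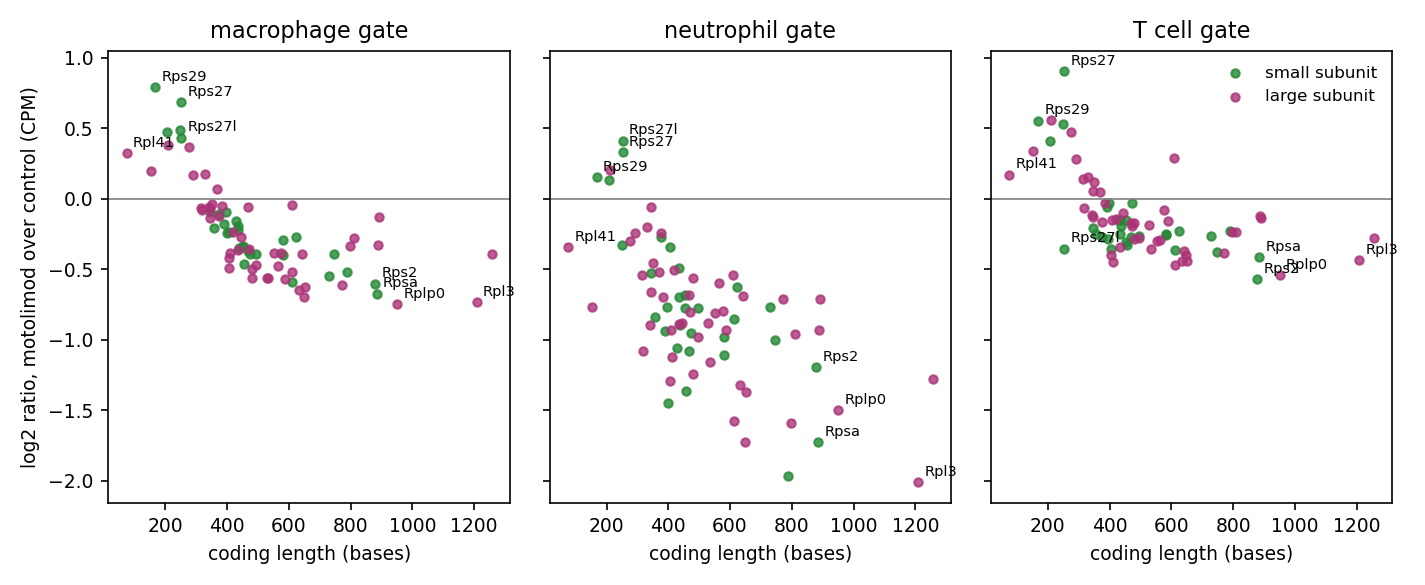
Log2 ratio of motolimod to control CPM for 77 members against coding length in bases, in macrophages, neutrophils and T cells; green points are small-subunit and purple points large-subunit members. In macrophages every member under 300 bases lies above 0 and every member of 450 bases or more lies below it.

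Near-identical copies limit what can be read from single members. The last 200 bases of an annotated transcript of each member were searched against the annotated transcripts of all genes. For 36 of the 80 members they matched a transcript of another gene over at least 150 bases at 95% identity or more. Rps2 had 37 such genes, the most of any member, and 8 members had a copy that the count table also lists. The longest principal transcript was used, and its end need not be the end that was captured. Sequence outside annotated transcripts was not searched. Spearman's rho between the number of copies and the log2 ratio was -0.01 in macrophages. Rps27rt, a copy of Rps27, held 2.20% of the UMIs of that pair in control macrophages and 2.02% in motolimod macrophages.

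The make-up of the ribosomal UMIs was compared between gates as the share of each member within them. For the median member, the highest of the gates was 1.37 times the lowest in the control and 1.57 times in the motolimod library, over gates with at least 50 cells. These were 6 gates in the control and 7 in the motolimod library, where NK cells were added. An added gate can only widen such a range, so the libraries are not compared like for like. For Rps27l the lowest gate was T cells in the control and NK cells in the motolimod library. The widest in the control library, with the motolimod value second, were Rps27 (3.17 and 4.14 times), Rps9 (2.88 and 2.49), Rps27l (2.84 and 3.63), Rps18 (2.19 and 3.22) and Rps2 (2.15 and 3.03). In the motolimod library Rpl3 (3.96) and Rps4x (3.31) were among the 5 widest and Rps9 and Rps2 were not. In control neutrophils Rps27 made up 1.47% of ribosomal UMIs, against 0.463% in macrophages, and in motolimod neutrophils 3.12%, against 0.877%. The 67 deep control cells held 72.0% of the ribosomal UMIs of control neutrophils, so the control make-up of that gate is largely theirs.

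Rps9 and Rps27 were weighted towards neutrophils, and Rps2 and Rps18 towards the keratin gate. Rps9, which sits at the mRNA entry side of the small subunit, held 4.32% of ribosomal UMIs in control neutrophils and 3.40% in motolimod neutrophils, which was 2.88 and 2.49 times its share in the keratin gate. Rps2 held 4.21% and 4.39% in the keratin gate and 1.96% and 1.45% in neutrophils. Rps18 held 2.30% and 2.23% in the keratin gate and 1.05% and 0.694% in neutrophils. The gates at either end were the same for these 3 members in both libraries. The control neutrophil values again rest largely on the 67 deep cells, and values without them are not given here.

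**Figure D4:**
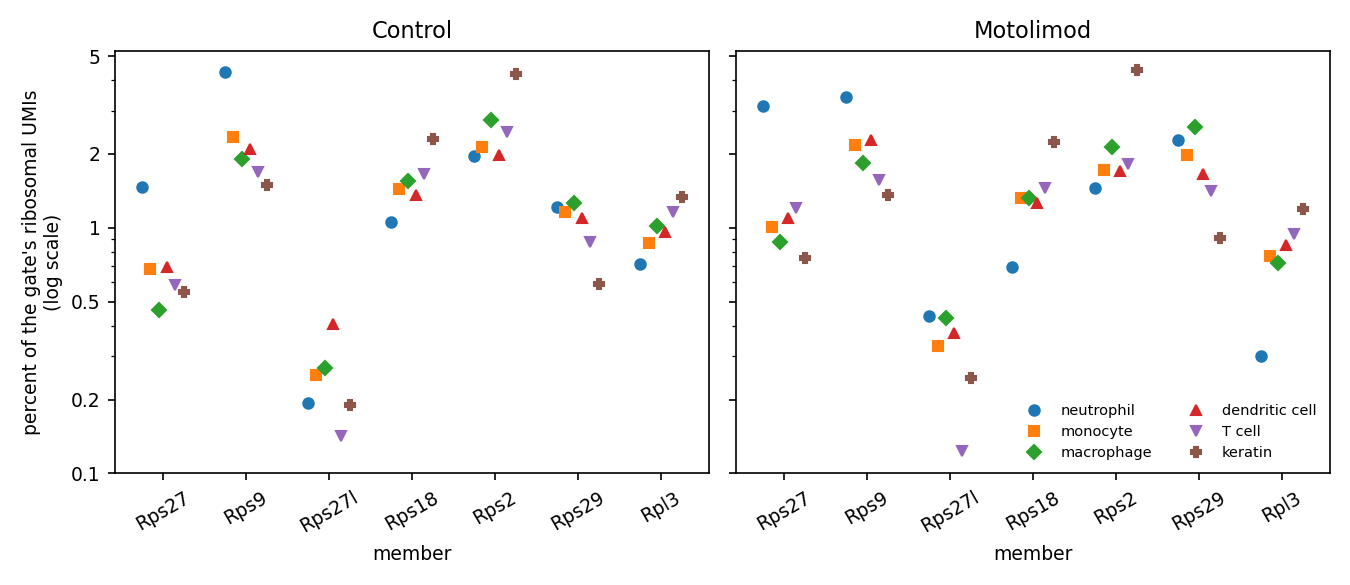
Percentage of a gate's ribosomal UMIs (log axis) held by 7 members in 6 gates, control on the left and motolimod on the right; each symbol is a gate. Rps9 is highest in neutrophils and Rps2 highest in the keratin gate in both panels.

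Rps27 and Rps27l show how a paralog pair divides. Rps27 lies at chr3:90212522-90213651 and Rps27l at chr9:66946086-66949516 (GRCm38, GENCODE M21), and each has 4 exons in its annotated transcript. Their coding sequences, shown here because reads of the pair must be told apart, have 255 bases each with the stop codon. They are identical at 194 of these (76.1%), and capitals mark the 61 bases that differ.
Rps27: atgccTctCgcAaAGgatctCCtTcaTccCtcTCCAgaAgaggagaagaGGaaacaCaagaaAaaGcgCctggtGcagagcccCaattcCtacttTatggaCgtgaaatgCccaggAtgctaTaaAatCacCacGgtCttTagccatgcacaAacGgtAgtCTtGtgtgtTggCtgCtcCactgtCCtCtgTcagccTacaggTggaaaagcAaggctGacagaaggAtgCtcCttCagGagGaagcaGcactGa
Rps27l: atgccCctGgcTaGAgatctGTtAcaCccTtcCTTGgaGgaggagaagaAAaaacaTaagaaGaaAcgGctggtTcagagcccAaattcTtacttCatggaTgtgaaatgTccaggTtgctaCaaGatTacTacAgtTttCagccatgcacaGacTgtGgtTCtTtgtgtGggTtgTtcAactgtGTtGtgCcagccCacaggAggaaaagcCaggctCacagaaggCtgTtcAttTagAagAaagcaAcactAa
The differing bases are spread over the whole length.

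Of the UMIs of the pair, Rps27l held 36.8% in control macrophages (interval 36.5 to 37.2) and 32.9% in motolimod macrophages (32.5 to 33.3). In T cells it held 19.6% (18.6 to 20.6) in the control and 9.25% (8.65 to 9.87) in the motolimod library. Neutrophils lay at 11.7% and 12.3%, monocytes at 27.1% and 24.7%, dendritic cells at 36.9% and 25.4% and the keratin gate at 25.8% and 24.5%. The control neutrophil value includes the 67 deep cells, which held 72.0% of that gate's ribosomal UMIs. Myeloid gates other than neutrophils thus had more of the paralog than T cells in both libraries.

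Rps27l itself moved in opposite directions in macrophages and T cells. It went from 368 to 288 CPM in T cells (0.782, interval 0.715 to 0.854), against the 1.35 in macrophages. Within subsets the T cell ratio was below 1 throughout. Among cells with Cd8a or Cd8b1 it was 0.779 (0.703 to 0.862), in cells of at least 5000 UMIs 0.810 (0.736 to 0.891) and in cells under 5000 UMIs 0.939 (0.711 to 1.24). Among cycling T cells, 96 control and 64 motolimod cells, it was 459 and 435 CPM (0.948, 0.837 to 1.07), and among other T cells 256 and 225 CPM (0.879, 0.765 to 1.01). Weighted to the control depths, the T cell ratio was 1.06, above the control. In macrophages the ratio was above 1 in cycling cells (1.24) and in the others (1.45), and in cells under 5000 UMIs (1.51) and of 5000 or more (1.29).

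Rpl22 and Rpl22l1 are paralogs of the large subunit, and Rpl22 is known to hold down the Rpl22l1 message. Rpl22l1 held 29.1% of that pair in control macrophages and 22.9% in motolimod macrophages, where it went from 570 to 397 CPM (0.697, interval 0.684 to 0.712), while Rpl22 stood at 1389 and 1337 CPM. In T cells it held 33.8% and 30.7%, and in neutrophils 31.7% and 22.2%, the control value with the 67 deep cells included. Rpl36al, a relative of the X-linked Rpl36a, held 54.6% and 51.3% of its pair in macrophages and 47.0% and 48.6% in T cells. Rpl7l1, a relative of Rpl7, held 8.05% and 7.27% in macrophages.

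The 3 members under the minimum differed from one another. Rpl10l had 0 UMIs in either library, which allows up to 0.0472 CPM in control and 0.0917 CPM in motolimod macrophages at 3 counts per gate. Rpl39l had 199 control and 75 motolimod UMIs, of which macrophages held 88 and 25. Rpl3l had 186 and 220 UMIs. It was seen in neutrophils (12.97 and 16.37 CPM, from 21 and 112 UMIs) and monocytes (10.6 and 4.07 CPM, from 27 and 9 UMIs). Dendritic cells had 7.56 CPM in the control and 3.15 CPM in the motolimod library, from 19 and 2 UMIs. Macrophages held 76 control and 49 motolimod UMIs of Rpl3l, at a lower CPM than these gates. Rpl3l had 0 UMIs in T cells and in the keratin gate of both libraries.

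The share of Rpl3l in its pair with Rpl3 in neutrophils was 2.503% in the control (interval 1.56 to 3.80) and 11.5% in the motolimod library (9.60 to 13.7). Its own ratio was 1.26 (0.787 to 2.12), an interval that spans 1, while that of Rpl3 was 0.248 and rested on the 67 deep control cells. In cells under 5000 UMIs the ratio of Rpl3 was 0.577, and Rpl3l held 6.47% (3.00 to 11.9, 9 UMIs) and 18.3% (15.2 to 21.8, 102 UMIs) of the pair. In macrophages the paralog held 0.0637% and 0.133% of the pair. Rpl3l lies at chr17:24727820-24736143 on the plus strand, between Ndufb10 and Msrb1, and no other annotated gene overlaps it. Msrb1 lies on the same strand and starts at position 24736642, shortly past the end of Rpl3l. Whether any UMIs counted for Rpl3l came from Msrb1 was not tested. The 0 UMIs in T cells allow up to 0.871 CPM in the control and 1.06 CPM in the motolimod library.

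**Figure D5:**
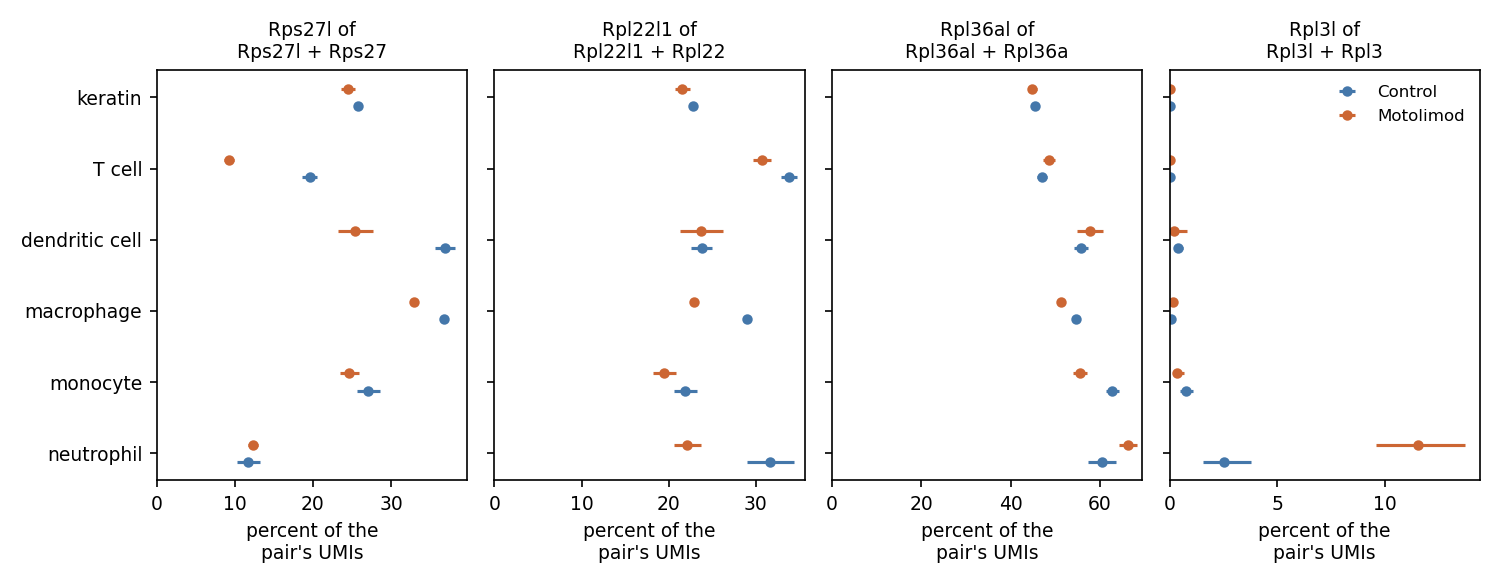
Percentage of a pair's UMIs held by the paralog Rps27l, Rpl22l1, Rpl36al or Rpl3l in 6 gates, control and motolimod; bars are exact 95% intervals for counting error. Rps27l is at 36.8% in control macrophages and 9.25% in motolimod T cells, and Rpl3l at 11.5% in motolimod neutrophils.

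Related gene lists were set beside the members, with the same 1.5-fold rule. Of the 17 other TOP translation genes 3 were lower and 0 higher in macrophages, against 5.29% and 8.53% of all genes. Their median ratio was 0.741, beside 0.798 for the members. Eef2, the translocation factor, went from 947 to 594 CPM (0.627), and Npm1, a nucleolar chaperone, from 710 to 467 CPM (0.658). In T cells 2 were lower and 0 higher, against 6.45% and 9.42% of all genes, with a median of 0.858. Weighted to the control depths, 0 of the 17 were lower in macrophages, against 1.68% of all genes, with a median of 0.839. In neutrophils 11 of the 15 at the minimum were lower, where 22.4% of all genes were. In neutrophils under 5000 UMIs, without the 67 deep control cells, 2 of 11 were lower and 2 higher, against 15.8% and 25.2% of all genes.

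Of 22 ribosome biogenesis genes, 11 reached the minimum in macrophages. Of these 4 were lower and 0 higher, against 5.29% and 8.53% of all genes, with a median ratio of 0.707. Nolc1, a nucleolar phosphoprotein, went from 72.7 to 40.8 CPM (0.562). In T cells 4 of 10 were lower, against 6.45% of all genes, with a median of 0.722. There Nip7, needed for pre-rRNA processing, went from 66.2 to 31.4 CPM (0.475). In the keratin gate, with 73 motolimod cells under the number set for compared gates, 16 of 18 biogenesis genes at the minimum were above the control (median 1.12, none 1.5-fold apart), as were 1655 of all 2895 genes. Of the mitochondrial ribosomal protein genes, 50 of 78 reached the minimum in macrophages, with 2 lower, 0 higher and a median ratio of 0.842. The count of 2 lower was near the 5.29% of all genes. Values weighted to the control depths are not given for either list.

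In the list of translation initiation and mTOR genes, 12 of 20 reached the minimum in macrophages, with 1 higher and 2 lower. Of all genes there, 8.53% were higher and 5.29% lower. Values weighted to the control depths are not given for this list. Eif4ebp2, a repressor of cap-dependent initiation, went from 40.6 to 63.2 CPM (1.55, interval 1.47 to 1.65). Eif5a, an elongation factor, went from 960 to 580 CPM (0.604), and Ddit4, a stress-induced inhibitor of mTOR, from 53.5 to 22.5 CPM (0.420). In T cells these genes stood at 1.68, 0.534 and 0.386 of the control. Of the p53 targets, 4 of 9 reached the minimum in macrophages. Mdm2, the p53 ubiquitin ligase, went from 52.9 to 88.5 CPM (1.67), and Cdkn1a stood at 613 and 604 CPM (0.984).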

How the data were processed

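The authors deposited 1 matrix of UMI counts for each library, not normalized, as whole numbers per the file headers. The build was mm10, and Cell Ranger is given as 5.0.1 in the submitters' processing notes but as 7.1.0 per the file headers. The library totals were 127609378 UMIs over 8099 control barcodes and 62057685 UMIs over 10037 motolimod barcodes. Handling of intron reads and of reads with several matches is not given in the sources used here.

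A barcode entered a gate with at least 2 detected markers and a set level of marker UMIs per 10000 (from 3 for T cells to 20 for neutrophils). Droplets with 2 lineages were left out, which was the treatment of doublets, and no caller was run. Counts were summed per gate and library. CPM is per 1000000 UMIs of the gate. A UMI tags a 3′ end, so CPM is not per length, and the order of members by UMIs is an order of captured tags, not of levels per length. Shares have exact Clopper-Pearson intervals and ratios exact conditional binomial intervals at 95%. Named are the members with most UMIs, the 5 highest and 5 lowest ratios in the macrophage, neutrophil and T cell gates, the 5 varying most between gates, the paralog pairs, members near 0 and up to 4 genes of each other list. Rps4l matched no symbol. The share with a wider set of ribosomal genes is not reported here. Members and lists were chosen with earlier results of these data known, and subset and paralog details beyond the rule were chosen after their values were seen. The 1.5-fold rule and the intervals were tested on simulated data. Apart from the changes set in them, the simulated counts differed by counting error only. Differences between libraries in capture or mix of cells were thus not covered.

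Gene models came from GENCODE M21, copies from blastn 2.17.0 and start sequences from RefSeq on GRCm38.p6. Computations used Python 3.11.15, numpy 2.4.6, scipy 1.17.1, pandas 2.3.3 and matplotlib 3.10.9.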

Additional observations from a re-analysis of the deposited data

Results flagged for a closer look

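Members with at least 100 UMIs in each library were marked where they were at least 1.25-fold higher in the motolimod library in 1 of the 4 compared gates and at least 1.25-fold lower in another, a limit chosen after the data were seen. With 1 library per group the difference between gates was not tested. Of the 80 members, 5 met it. Rps27l, the paralog of Rps27, stood at 1.35 in macrophages and 0.782 in T cells, and its T cell ratio was 1.06 at the control mix of UMIs per cell. In cells under 5000 UMIs Rps27l stood at 1.51 in macrophages, 2.25 in monocytes, 2.92 in neutrophils and 0.939 in T cells. Rpl35 stood at 1.25 in monocytes and 0.698 in neutrophils. Rpl39 stood at 1.28 in monocytes and 0.588 in neutrophils, Rpl41 at 1.32 and 0.788, and Rps21 at 1.45 and 0.797. In cells under 5000 UMIs the neutrophil ratios were 1.53 for Rpl35, 0.952 for Rpl39, 1.09 for Rpl41 and 1.25 for Rps21, so that only Rpl39 of these 4 remained below 1, with an interval of 0.847 to 1.07.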

How the results depend on the processing

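No paired analysis was possible because each group has 1 library. The ratio of the ribosomal share stayed below 1 in the macrophage, monocyte and T cell gates under the 9 alternatives run on it and reported. In neutrophils it was above 1 under 1 of them, cells under 5000 UMIs, an alternative added after the data were seen. That setting gave ratios of 0.884 (macrophages), 0.956 (monocytes), 1.05 (neutrophils) and 0.984 (T cells), and member counts of 1 higher and 4 lower, 8 and 7, 12 and 4, and 0 higher in T cells. Rpl13 (1.09) and Rps2 (1.00) passed 1 there in neutrophils, against 0.400 and 0.437 over all cells. Weighting to the control mix of UMIs per cell gave 0.918, 0.963, 0.774 and 0.911, with 1 member higher and 0 lower in macrophages, 1 higher and 21 lower in neutrophils, and Rps27l at 1.06 in T cells. Thinning to 1000 UMIs gave 0.825, 0.940, 0.797 and 0.925, with 19 lower in macrophages, 3 higher and 2 lower in monocytes, 2 higher and 22 lower in neutrophils and 2 higher in T cells. The mean over cells gave 0.824, 0.955, 0.881 and 0.929. Without the 50 leading other genes the ratios were 0.873, 0.977, 0.653 and 0.926, with 5 lower in macrophages and 2 higher in T cells. Needing 3 markers gave 0.845 in macrophages, 0.990 in monocytes, where 2 were higher, and 0.616 in neutrophils. Keeping mixed droplets gave 0.844 in macrophages, 0.567 in neutrophils, where Rps28 was at 0.936, and 0.900 in T cells. Without mitochondrial UMIs macrophages were at 0.851 and T cells at 0.910. The stricter cell filter gave 0.561 in neutrophils. A minimum of 10 CPM gave 1 lower in monocytes, and no minimum gave 2 lower there and 2 higher in T cells. Scaled to ribosomal UMIs, 7 members were higher and 0 lower in macrophages, 6 higher and 10 lower in neutrophils and 5 higher in T cells. The share over all genes was counted only for the weighted macrophages and for neutrophils under 5000 UMIs, as given above. The other member counts of this paragraph have no such background, so they do not tell whether the members stood out from other genes. The cause of these changes was not tested. Few cells limit the control NK gate (19 cells) and the motolimod dendritic cell gate (56 cells), and low depth the control neutrophil gate (529 cells, median 2000 UMIs).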

Other observations

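Gm42418, a gene model at chr17:39846958-39848788 (GRCm38, GENCODE M21) known to overlap ribosomal RNA sequence, took 1.42% of UMIs in control and 3.01% in motolimod macrophages (ratio 2.11, interval 2.11 to 2.12). In monocytes it took 1.65% and 2.67%, in T cells 1.57% and 2.27%, and in neutrophils 1.79% and 1.82%. AY036118, a model on the opposite strand of the same locus, took 0.197% and 0.368% in macrophages. Both enter the total of UMIs behind the ribosomal share. Barcodes that failed the filter had ribosomal shares of 7.26% in the control (615 barcodes) and 7.08% in the motolimod library (723 barcodes). Cells without a gate had 23.3% (274 cells) and 14.4% (439 cells).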
